A study of Mus musculus with 8 samples.

Results

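Adenylyl cyclases make cyclic AMP and phosphodiesterases break down cyclic AMP, cyclic GMP or both, and the expression of these 2 enzyme families was compared between control and high-fat diet in pancreatic beta cell samples of mice. Members were the array's non-control probes whose gene name in the scanner files is Adcy or Pde followed by a number and, for Pde, an optional letter. This gave 35 of the 30028 gene names and 63 of the 39429 probes on the array: 14 probes for 10 adenylyl cyclases and 49 probes for 25 phosphodiesterases. The choice used names alone and no measured value. A gene with several probes has its probes marked a, b, c and d here.

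The mice were of the C57BL/6 background, and the labels name no transgene, drug, age or sex. The 4 control samples came from mice fed chow and the 4 others from mice on a high-fat diet, whose duration and composition the labels do not give. Each of the 8 samples is labelled as a biological replicate and was hybridised to its own one-colour Agilent array. The cells were collected when the animals were killed and were frozen, and the labels do not say how they were isolated.

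In beta cells, hormones such as the incretins act on receptors coupled to the stimulatory G protein, which activates membrane adenylyl cyclases. The cyclic AMP formed acts through protein kinase A and the exchange factor Epac and potentiates insulin secretion evoked by glucose. Phosphodiesterases end the signal, and their families differ in substrate and in regulation by calcium, cyclic GMP or phosphorylation.

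The arrays had 75th percentiles of the signal between 333.6 and 710.8 intensity units, and between 63.6% and 68.6% of spots were well above background, as marked by the scanner software. Levels below are log2 signals minus the log2 of the array's 75th percentile, so that 0 is the brightness of that percentile. On this scale the dimmest probe well above background lay between -5.54 and -5.07, depending on the array. Slide 1 held replicates 1 and 2 of both diets and slide 2 replicates 3 and 4. Control arrays had positions 1 and 3 and high-fat arrays positions 2 and 4 on both slides, so position and diet cannot be told apart. All 10 beta cell markers, including both insulin genes, were well above background on enough arrays to be tested, and so were all 10 acinar, all 6 alpha cell and all 5 delta and PP cell markers. Relative to the 75th percentile, the 10 acinar markers summed to between 1831 and 3873 per array and the 10 beta cell markers to between 806.6 and 1165. The levels below are those of the whole sample and not of beta cells alone. In such bulk samples fewer cells of a type and less RNA per cell cannot be told apart.

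Sequences are given for the probes of Pde1c, Pde3b and the cyclase genes Adcy5 and Adcy7. Pde6c b, the 1 probe higher on the high-fat diet at an unadjusted p under 0.05 in limma, is left out. Along Pde1c 3 probes had differences of the same sign. For Pde3b 1 probe was above background on all 8 arrays and the other on 5. The first 30 of the 60 bases of each probe of these 4 genes are given below, 5′ to 3′, as the scanner files hold them. They are in lower case throughout because no stretch is singled out.
Pde1c a: cggtaaaaataaggcagacaagaaggatca
Pde1c b: atagcttgataactggaatcacttcttgag
Pde1c c: gttacgtggtatgttatctgacaaatgcaa
Pde3b a: cacttttgctaccacaactacatcatttgt
Pde3b b: gagataatggaactaacagacattatgact
Adcy5 a: gcaagaggacaccaggcaaggagcagtggc
Adcy5 b: atgtttccccttggcagaagactctgctag
Adcy5 c: ggaggtgggaaccccaacttgtctttttgt
Adcy7: acacttcctgacaaagtgattgttactgtg

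On mouse build mm9, in the coordinates of the scanner files, the Pde1c probes lie on the minus strand at chr6:56072991-56073050 (a), chr6:56054172-56054231 (b) and chr6:56030237-56030296 (c), which together span 42.8 kb. The Pde3b probes lie 1.39 kb apart from outer end to outer end on the plus strand, at chr7:121681370-121681429 (a) and chr7:121682700-121682759 (b), and both have a GC content of 35.0% over their 60 bases. The 3 Adcy5 probes fall within 570 bases of the plus strand, at chr16:35304398-35304457 (a), chr16:35304041-35304100 (b) and chr16:35304551-35304610 (c). The Adcy7 probe lies at chr8:90853657-90853716 on the plus strand. The exon or untranslated region under each probe was not analysed here.

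Of the 63 probes, 46 reached the minimum of 4 arrays on which they were well above background and were compared between the diets, a share that stood at 66.2% over all 39429 probes. They stood for 31 of the 35 genes. In all, 35 probes were above background on all 8 arrays, 11 on 4 to 7, 5 on 1 to 3 and 12 on none. Among the cyclases, 8 of 14 probes passed, for Adcy2, Adcy3, Adcy4, Adcy5, Adcy6, Adcy7 and Adcy9. The 3 cyclases without such a probe were Adcy1 and Adcy8, both stimulated by calcium and calmodulin, and Adcy10, the soluble cyclase that responds to bicarbonate. The single probes of Adcy1 and Adcy8 were above background on 0 arrays, with signals of 2.40 to 11.3 intensity units for Adcy1 and 2.39 to 11.2 for Adcy8. Of the 3 Adcy10 probes, 1 was above background on 1 control array and the others on none. These probes give only an upper bound, and a dim probe does not show that a transcript was missing.

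Among the phosphodiesterases, 38 of 49 probes passed, and Pde6a, a catalytic subunit of rod photoreceptors whose probe was above background on 1 control array, was the only one of the 25 genes with no tested probe. In the 2 families 18 genes had several probes, and for 9 of the phosphodiesterases and for Adcy5 tested and untested probes stood side by side in the same gene. Pde10a, which hydrolyses both cyclic nucleotides, had 2 probes above background on all 8 arrays and 1 on none. Pde3a, inhibited by cyclic GMP, had 1 probe above background on all 8 arrays, 1 on a single high-fat array and 1 on none. The plot of detection by probe shows each count by diet.

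**Figure D1:**
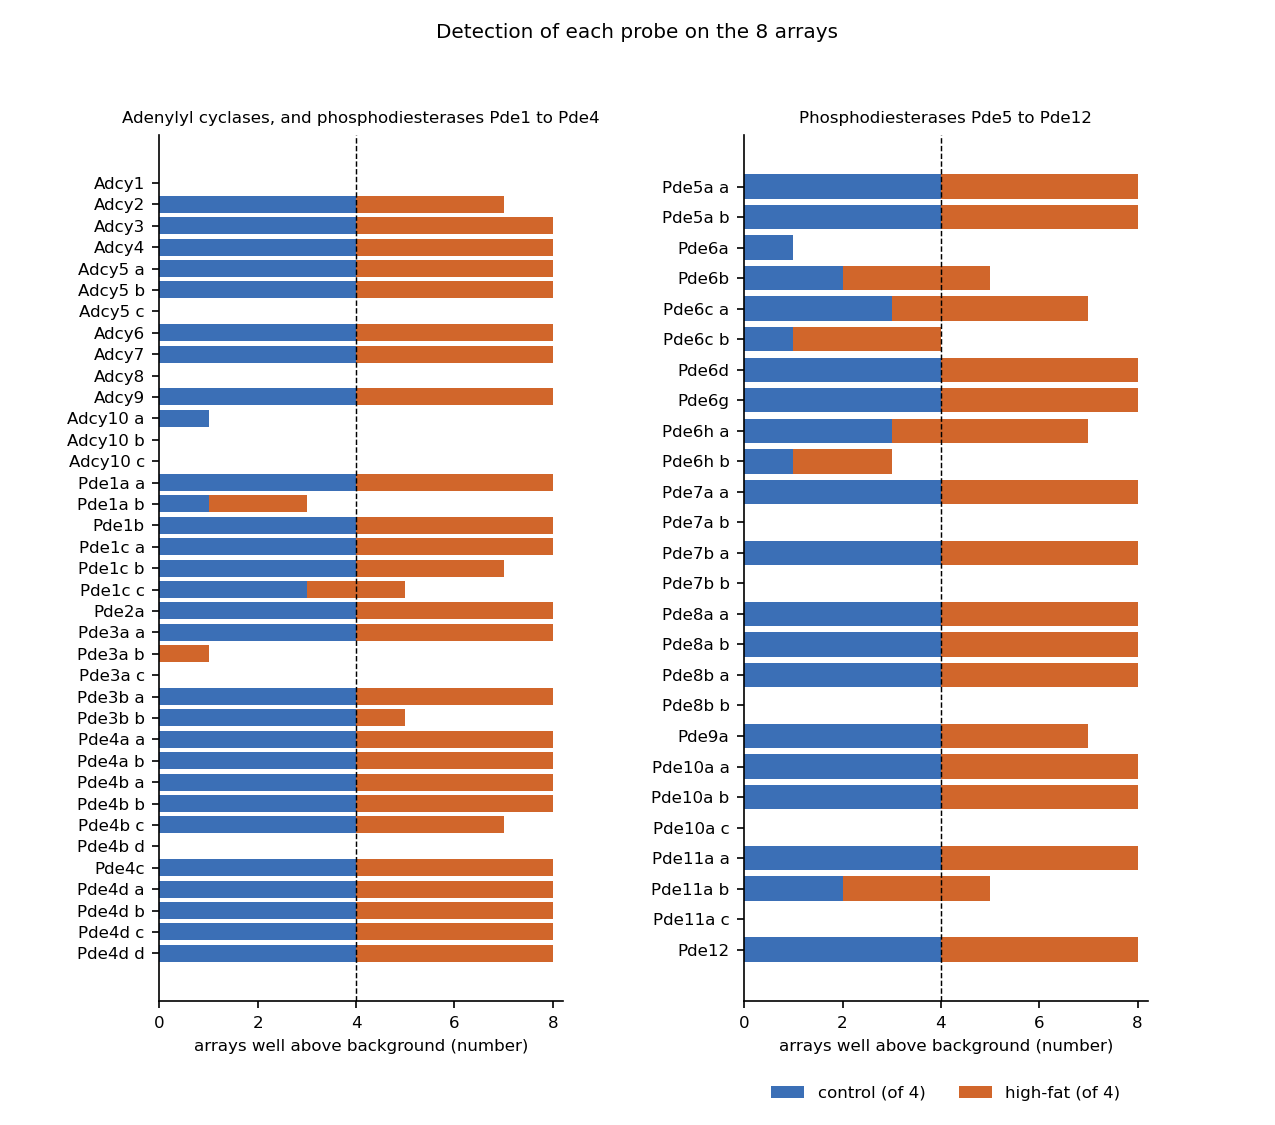
Number of arrays, of 4 control and 4 high-fat, on which each of the 63 probes was well above background. The dashed line marks the minimum of 4 arrays for the comparison, which 46 probes reached and 17 did not.

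No cyclase or phosphodiesterase probe differed between the diets at an adjusted p under 0.05 in limma, nor did any of the 26084 probes tested (0%). The smallest adjusted p in the 2 families was 0.692, against 0.154 over all probes. At an unadjusted p under 0.05, 6 of the 46 probes differed, 5 of them lower and 1 higher on the high-fat diet, where the share over all probes tested was 5.78%, made up of 3.45% lower and 2.33% higher. The 5 lower probes were 2 without control replicate 1, 3 without control replicate 2 or 4 or high-fat replicate 1 or 4, and 9 without control replicate 3, and the 1 higher probe became 2 without high-fat replicate 1. With slide as a block 4 were lower, without Adcy5 b, and 1 was higher. The count includes Pde3b b and Pde6c b, which passed the filter mainly through the diet with the higher signal, so it supports nothing about the members as a whole. The differences of 33 of the 46 probes were within 0.3 of 0 on the log2 scale, and the same share over all probes was not counted. The SE of the 46 probes ran from 0.09 (Pde3b a) to 0.66 (Pde11a b). Most were above the median SE over all probes, 0.174, so these members were measured less precisely than the typical probe.

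Of the 46 probes, 35 had lower and 11 higher means on the high-fat diet, so 76.1% were lower beside 52.5% of all probes tested. With normexp background correction the signs turned for 29 of the 46, and with normexp after leaving out smeared spots for 14. Plain normexp left high-fat replicate 2 with a median level of -0.09, against -0.89 to -0.79 on the other arrays. It moved the median difference of all probes to 0.19. The median difference was -0.07 over the 46 probes, -0.38 over the 8 cyclase probes, -0.06 over the 38 phosphodiesterase probes and -0.01 over all probes tested. With normexp the cyclase median was 0.37 and the phosphodiesterase median 0.55. After leaving out smeared spots these medians were -0.07 and 0.01, and that of all probes was 0.02. Both normexp settings add an offset of 50 to the signals, which by itself makes log2 differences of dim probes smaller. Among the cyclases 7 of the 8 probes were on the lower side, as were 28 of the 38 phosphodiesterase probes. On both slides 7 of the 8 cyclase probes were lower, while Adcy9 differed by -0.06 on slide 1 and 0.08 on slide 2. In the deposited value table, the authors' own log2 values of these arrays, the cyclase median was -0.05.

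**Figure D2:**
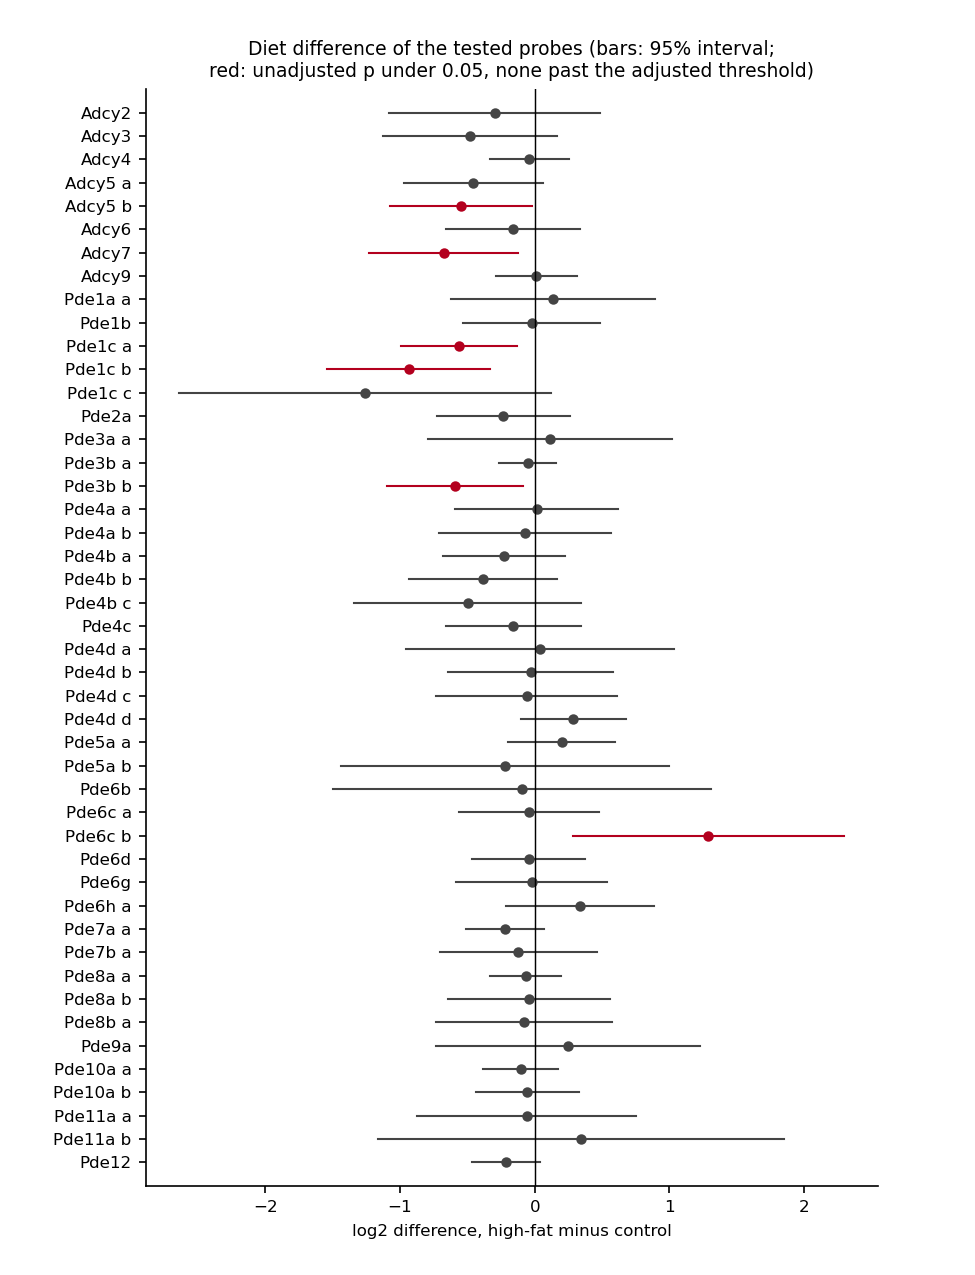
Log2 difference, high-fat minus control, of the 46 tested probes, with 95% intervals from limma and with the 6 probes at an unadjusted p under 0.05 in red. Most points lie left of 0 in these values. With normexp background correction 29 of the 46 signs turn, and 14 do with normexp after leaving out smeared spots. None of the probes passes the adjusted threshold.

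Among the cyclases regulated by the beta and gamma subunits of G proteins, Adcy7 was dim and lower on the high-fat diet before adjustment. Its log2 levels on control arrays 1 to 4 were -2.53, -2.64, -2.62 and -2.91, and on high-fat arrays 1 to 4 they were -3.47, -3.29, -3.92 and -2.70. The control arrays lay close together, and high-fat replicate 4 fell within their range, so the diets overlapped. The means were -2.67 ± 0.16 and -3.35 ± 0.51 (SD, n = 4 each). The difference was -0.67 ± 0.24 (SE), 1.60-fold lower, with an unadjusted p of 0.0226 and an adjusted p of 0.792 in limma. Its sign was the same on slide 1 (-0.80) and slide 2 (-0.55). With normexp the difference was 0.24, and with normexp after leaving out smeared spots it was -0.27.

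Adcy2 and Adcy4, of the same regulatory group, differed by -0.30 ± 0.34 and -0.04 ± 0.13 (SE). The Adcy2 probe was above background on all 4 control and on 3 high-fat arrays. The interval for Adcy4, -0.33 to 0.25, covers differences of either sign.

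Adcy5 and Adcy6 are the cyclases inhibited by calcium. Adcy5 b had control levels of -4.16, -3.66, -4.63 and -3.73 and high-fat levels of -4.89, -4.32, -4.50 and -4.65. Control replicate 3 was as low as the high-fat arrays, and the diets overlapped. The difference was -0.55 ± 0.23 (SE), with an unadjusted p of 0.0444 and an adjusted p of 0.836 in limma. With slide as a block the unadjusted p was 0.0545, and the slides gave -0.69 and -0.40. Adcy5 a read -4.19, -4.03, -4.12 and -3.27 on the control arrays and -4.52, -3.99, -4.41 and -4.49 on the high-fat arrays, again with overlap, as high-fat replicate 2 was above 3 of the control arrays. Its difference was -0.45 ± 0.22 (SE), with an unadjusted p of 0.0763. Both probes were above background on all 8 arrays, and Adcy5 c, downstream of them, was above background on none. With normexp the differences of a and b were 0.56 and 0.50, and after leaving out smeared spots they were -0.02 and -0.11.

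Adcy6 was above background on all 8 arrays, with control levels of 0.97, 0.45, 0.41 and 0.36 and high-fat levels of 0.91, 0.36, 0.27 and 0.01. Replicate 1 was the highest in both diets and the diets overlapped. The difference was -0.16 ± 0.22 (SE), with a 95% interval from -0.66 to 0.34.

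Adcy9, a cyclase insensitive to forskolin, had signals from 2410 to 6202 intensity units. Its control levels were 3.13, 3.04, 2.85 and 3.18 and its high-fat levels 3.03, 3.01, 3.32 and 2.88. The diets overlapped throughout. Its difference was 0.01 ± 0.13 (SE) and its interval, -0.29 to 0.31 at 95%, bounds the difference in both directions. Adcy3, known from olfactory neurons and primary cilia, was dim, at -3.66, -3.22, -4.69 and -3.84 on control and -4.49, -4.11, -4.35 and -4.36 on high-fat arrays. Its lowest array was control replicate 3, and the difference was -0.48 ± 0.28 (SE) with an unadjusted p of 0.128.

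The phosphodiesterases activated by calcium and calmodulin, the Pde1 family, held the probe with the smallest p of all members. Pde1c b had control levels of -3.73, -3.55, -4.11 and -4.15 and high-fat levels of -4.54, -4.83, -4.37 and -5.54. No high-fat array reached the lowest control array. The means were -3.89 ± 0.29 and -4.82 ± 0.51 (SD, n = 4 each), a difference of -0.93 ± 0.26 (SE), or 1.91-fold lower. The unadjusted p was 0.00721 and the adjusted p 0.692 in limma, so the difference did not pass the threshold. The probe was above background on all 4 control and on 3 high-fat arrays.

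Pde1c a read -2.71, -3.27, -3.24 and -2.99 on control arrays and -3.29, -3.61, -3.55 and -4.01 on high-fat arrays. The diets did not overlap here either, though high-fat replicate 1 and control replicate 2 almost met. The difference was -0.56 ± 0.19 (SE), 1.48-fold, with an unadjusted p of 0.0168 and an adjusted p of 0.762. This probe was above background on all 8 arrays. Pde1c c read -3.92, -4.95, -4.70 and -4.21 on control and -4.73, -7.52, -4.71 and -5.86 on high-fat arrays, and the diets overlapped. Its difference of -1.26 ± 0.60 (SE) had an unadjusted p of 0.0683 in limma. It was above background on 3 arrays of the control and 2 of the high-fat diet. The other values were not well above background, so the size of this difference has no firm basis.

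All 3 Pde1c probes were thus on the lower side. The slide 1 differences were -0.46, -1.05 and -1.69 and the slide 2 differences -0.66, -0.82 and -0.83 for a, b and c. Those of c rest in part on values that were not well above background. The probes share the same 8 RNA samples and are not independent replicates. In the authors' deposited value table the differences of a and b were -0.08 and -0.04, with unadjusted p of 0.131 and 0.376 in limma on those values. That table's values lay near its lower end for such probes: Pde1c b averaged 8.07, and the lowest value on each array was 7.87 or more except on high-fat replicate 2, where it was 5.78. With normexp the signs of all 3 turned, to 0.33, 0.54 and 0.57. After leaving out the smeared spots they were -0.23, -0.06 and -0.17. Normexp was run with an added offset of 50, beside signals of 8.48 to 53.7 intensity units for b and 2.57 to 47.0 for c. Such an offset makes log2 differences of dim probes smaller, so these sizes are not on the same footing as those above.

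The other Pde1 genes had small differences. Pde1a a, above background on all 8 arrays, differed by 0.13 ± 0.33 (SE), and its second probe was above background on 3 arrays. Pde1b differed by -0.02 ± 0.22 (SE).

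**Figure D3:**
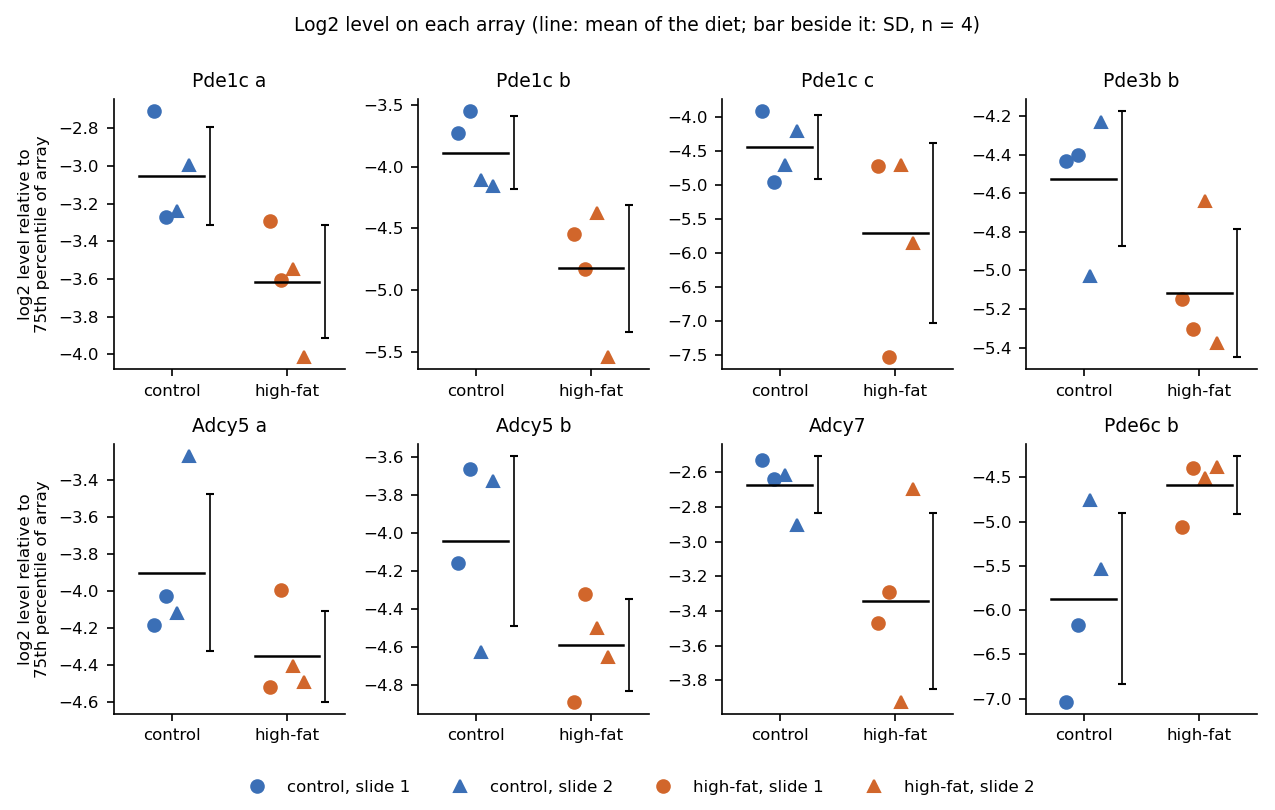
Log2 level on each array, relative to the array's 75th percentile, of 8 probes with low unadjusted p or of the same genes; lines are diet means and bars the SD of 4 arrays. The diets separate for Pde1c a and Pde1c b, and overlap for the other 6 probes. With normexp background correction each of the probes drawn as lower has the opposite sign. With normexp after leaving out smeared spots each of them is lower again, from -0.27 (Adcy7) to -0.02 (Adcy5 a). The offset added in normexp makes log2 differences of dim probes smaller.

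Pde2a, which cyclic GMP stimulates, differed by -0.23 ± 0.21 (SE). The 2 genes of the Pde3 family, inhibited by cyclic GMP, include Pde3b, the isoform that insulin activates by phosphorylation and that is known in beta cells. Pde3b a was bright and even, at 2.76, 2.79, 2.84 and 2.74 on control and 2.76, 2.62, 2.81 and 2.72 on high-fat arrays. The diets overlapped, the difference was -0.05 ± 0.09 (SE), and its 95% interval ran from -0.27 to 0.16. Pde3b b, in the same gene, was dim, at -4.43, -4.40, -5.03 and -4.23 on control and -5.15, -5.30, -4.64 and -5.38 on high-fat arrays. Control replicate 3 lay among the high-fat arrays, so the diets overlapped. Its difference was -0.59 ± 0.22 (SE), with an unadjusted p of 0.0268 and an adjusted p of 0.796, and it was above background on 4 control arrays and on 1 high-fat array. It thus entered the comparison through the control arrays, and 3 of its high-fat values were not well above background, so the size of the difference has no firm basis. Only Pde3b a was above background on every array. With normexp the difference of Pde3b b was 0.58, and after leaving out smeared spots it was -0.09.

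Pde3a a read -2.91, -3.50, -1.51 and -2.58 on control and -2.11, -2.96, -2.60 and -2.37 on high-fat arrays. The control arrays spanned the whole high-fat range. Its difference was 0.11 ± 0.39 (SE), and its sign was unlike on the slides, at 0.67 and -0.44.

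The Pde4 family, specific for cyclic AMP, had 10 tested probes in 4 genes, and none had an unadjusted p under 0.05. Pde4c, with signals from 15203 to 32918 intensity units, had levels of 5.53, 5.11, 5.97 and 5.73 on control and 5.62, 5.01, 5.69 and 5.39 on high-fat arrays. The diets overlapped and the difference was -0.16 ± 0.22 (SE). The sign of Pde4c was the same under every setting tried.

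The 3 tested Pde4b probes differed by -0.23, -0.38 and -0.50. Pde4b a read -0.18, -0.32, -0.93 and -0.22 on control and -0.52, -0.92, -0.38 and -0.75 on high-fat arrays. Control replicate 3 was as low as high-fat replicate 2, and the difference of -0.23 ± 0.20 (SE) had an unadjusted p of 0.281. Its slides gave -0.47 and 0.01. A further Pde4b probe, upstream of these in the gene, was above background on none of the arrays.

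The 4 Pde4d probes, spread over 835 kb, differed by 0.04, -0.03, -0.06 and 0.29. Pde4d a read -1.48, -2.90, -1.92 and -2.07 on control and -1.75, -3.25, -1.42 and -1.78 on high-fat arrays. Replicate 2 was the lowest in both diets and the diets overlapped. Its difference was 0.04 ± 0.44 (SE). Pde4d b lacks control replicate 4, whose spot the scanner software marked as an outlier. Pde4a, with 2 probes, differed by 0.01 ± 0.26 and -0.07 ± 0.28 (SE).

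Pde7 and Pde8 are the other cyclic AMP specific families. Pde7a a and Pde7b a differed by -0.22 ± 0.13 and -0.12 ± 0.25 (SE), and each gene had a second probe above background on no array. Pde8a gave -0.07 ± 0.12 for a and -0.04 ± 0.26 for b. Pde8b a read -3.59, -3.41, -2.37 and -3.47 on control and -2.87, -3.58, -3.33 and -3.38 on high-fat arrays. Control replicate 3 stood above the rest, the diets overlapped, and the difference was -0.08 ± 0.28 (SE).

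The families specific for cyclic GMP are Pde5, Pde6 and Pde9. Pde5a differed by 0.20 ± 0.17 (SE) for the brighter probe a and by -0.22 ± 0.53 for b, and Pde9a by 0.25 ± 0.43. The Pde6 genes encode the photoreceptor enzyme: Pde6a and Pde6b its rod and Pde6c its cone catalytic subunits, Pde6g and Pde6h its inhibitory subunits, and Pde6d a protein that carries prenylated proteins. Pde6c b was the 1 member with a higher mean on the high-fat diet at an unadjusted p under 0.05. Its control levels were -7.03, -6.17, -4.75 and -5.54 and its high-fat levels -5.06, -4.39, -4.50 and -4.38. Control replicate 3 was above high-fat replicate 1, so the diets overlapped. The difference was 1.29 ± 0.44 (SE), with an unadjusted p of 0.0182 and an adjusted p of 0.770. It rests on 3 control values that were not well above background, so its size has no firm basis either.

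This Pde6c probe was above background on 1 array of the control and 3 of the high-fat diet, and the gene's other probe, above background on 3 control and all 4 high-fat arrays, differed by -0.05 ± 0.23 (SE). Pde6d and Pde6g were above background on all 8 arrays and differed by -0.05 ± 0.18 and -0.02 ± 0.24. Pde6b differed by -0.09 ± 0.61 and Pde6h a by 0.34 ± 0.24.

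Pde10a and Pde11a hydrolyse both cyclic nucleotides. Pde10a a read 0.15, -0.19, -0.27 and 0.06 on control and -0.21, -0.12, -0.13 and -0.20 on high-fat arrays. The control arrays lay on both sides of the high-fat arrays, and the difference was -0.10 ± 0.12 (SE) for a and -0.05 ± 0.17 for b. Pde11a gave -0.06 ± 0.35 for a and 0.34 ± 0.66 for b.

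Pde12, named with the family, encodes a mitochondrial enzyme that acts on oligoadenylates and RNA tails and not on cyclic nucleotides. It read -1.61, -1.69, -1.62 and -1.48 on control and -1.78, -2.02, -1.73 and -1.72 on high-fat arrays. Every high-fat array was below every control array, although the gap was narrow. The difference was -0.21 ± 0.11 (SE), 1.16-fold, with an unadjusted p of 0.0876, an adjusted p of 0.886 and an interval from -0.46 to 0.04. With Pde1c a and b it made up the 3 probes of the 46 whose diets did not overlap, all of them lower, where 3.4% of all probes tested did not overlap in either direction and 1.79% were lower without overlap. With normexp 0 of the 46 did not overlap, and among the deposited values 1 of them did not.

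Among the 11 genes with 2 or more tested probes, all tested probes were lower for Adcy5, Pde1c, Pde3b, Pde4b, Pde8a and Pde10a, and the signs were mixed for Pde4a, Pde4d, Pde5a, Pde6c and Pde11a. With normexp the sign turned for at least 1 probe of each of these 6 genes with probes of the same sign. After leaving out smeared spots it turned among them only for Pde4b c and Pde8a b.

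The slides were compared after the values had been seen. Of the 46 probes, 7 differed between slide 2 and slide 1 at an unadjusted p under 0.05, where 18.4% of all probes tested did, and 2 passed the adjusted threshold, where 2.73% of all probes did. Pde1a a was higher on slide 2 by 0.87 ± 0.13 (SE, adjusted p = 0.0257 in limma). Its levels on slide 1 were 0.62 and 0.43 on control and 0.93 and 0.86 on high-fat arrays, and on slide 2 they were 1.73 and 1.53 on control and 1.44 and 1.63 on high-fat arrays. Every array of slide 2 was above every array of slide 1. Pde11a a, with -2.37, -2.89, -1.28 and -1.66 on control and -2.44, -2.42, -1.86 and -1.72 on high-fat arrays, was higher on slide 2 by 0.90 ± 0.18 (adjusted p = 0.0467). The slide and the samples on it cannot be told apart as the source of these levels. Both slides held both diets equally.

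The signs of the diet difference were opposite on the slides for 21 of the 46 probes, beside 47.4% of all probes tested. In all, 22 probes were lower on both slides and 3 higher on both, shares that were not counted over all probes. A difference between the slides in the diet effect, tested as an interaction in limma, passed the adjusted threshold for 0 probes of the 26084 (0%), and 2 of the 46 had an unadjusted p under 0.05, where 6.53% of all probes did. These were Pde4a b, with differences of 0.50 on slide 1 and -0.64 on slide 2 (unadjusted p = 0.0378, adjusted p = 0.744 in limma), and Pde11a b, with 1.48 and -0.80 (unadjusted p = 0.0485, adjusted p = 0.757 in limma). Pde4a b read -2.90, -2.75, -1.88 and -2.59 on control and -1.97, -2.68, -2.85 and -2.91 on high-fat arrays. One array of each diet, control replicate 3 and high-fat replicate 1, was higher than the rest.

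**Figure D4:**
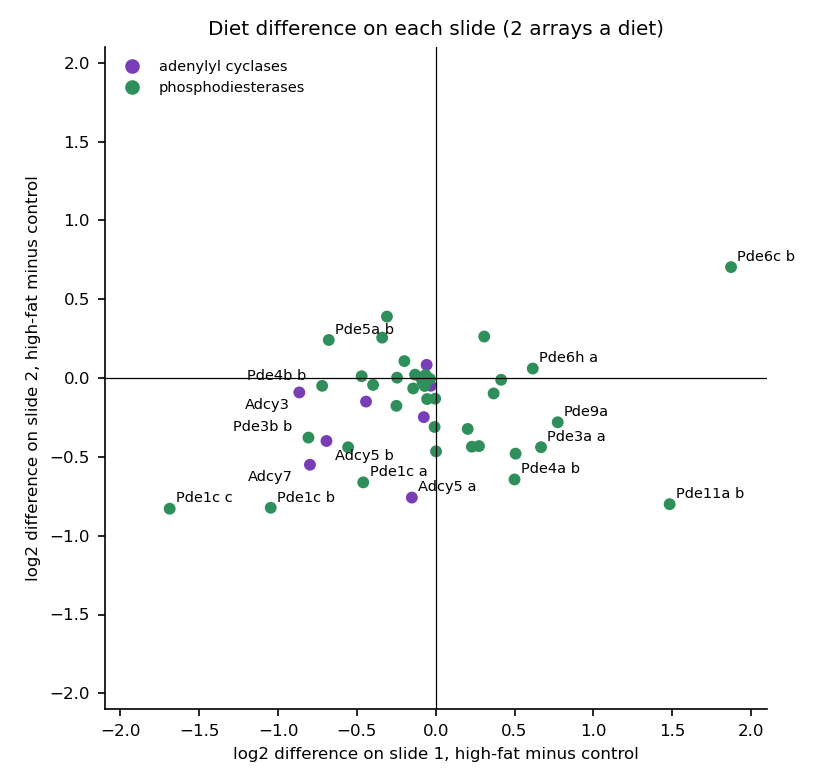
Log2 difference, high-fat minus control, on slide 1 (horizontal) and slide 2 (vertical) for the 46 tested probes, each from 2 arrays of each diet. Points in the lower left are lower on both slides (22 probes), among them the 3 Pde1c probes, and 21 probes lie where the signs are opposite; the signs are those without normexp background correction.

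**Figure D5:**
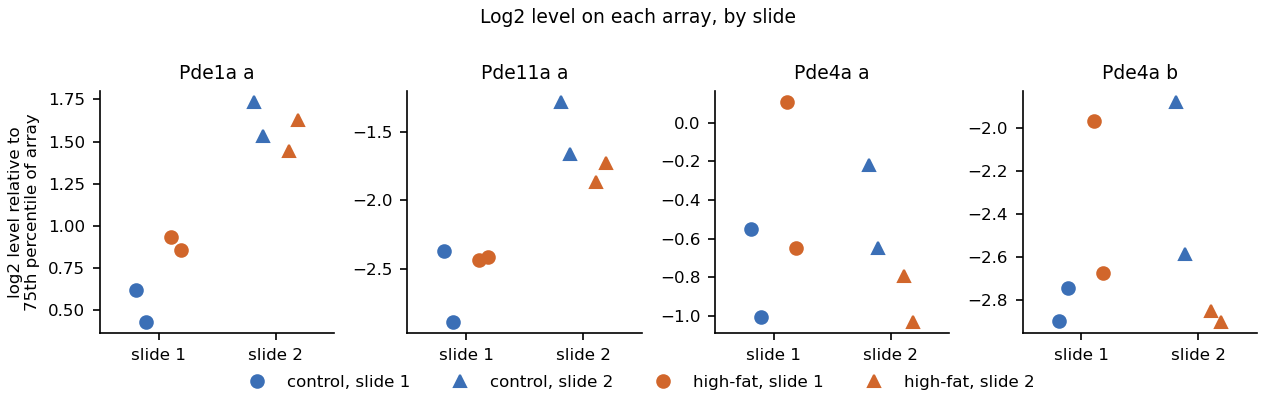
Log2 level on each array, relative to the array's 75th percentile, by slide for Pde1a a, Pde11a a, Pde4a a and Pde4a b. Pde1a a and Pde11a a are higher on all 4 arrays of slide 2 than on all 4 of slide 1, while the means of the Pde4a probes show the diets in opposite order on the slides.

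The genes that act before and after these enzymes were read from 9 lists with 111 tested genes, each gene by its brightest probe. Of these, 54 had higher and 57 lower means on the high-fat diet, with a median of -0.01. At an unadjusted p under 0.05 in limma 4 were higher and 4 lower, where 2.33% of all probes tested were higher and 3.45% lower. The 4 and 4 include Cngb3 and Popdc2, which were above background on fewer arrays of the diet with the lower signal. At an adjusted p under 0.05 there were 0. Of 19 tested receptors, 12 were higher and 7 lower. The receptors of the incretins differed by -0.08 ± 0.11 (SE) for Glp1r and -0.38 ± 0.42 for Gipr, while Vipr2, which binds the peptide VIP, differed by 0.59 ± 0.18 (adjusted p = 0.733) and the somatostatin receptor Sstr1 by -0.85 ± 0.17 (adjusted p = 0.410). Of 18 G protein subunits 7 were higher and 11 lower, with Gnas, the stimulatory alpha subunit, at 0.11 ± 0.11. The inhibitory subunit Gnai2 differed by -0.31 ± 0.12 and the gamma subunit Gng3 by -1.25 ± 0.51, both at an unadjusted p under 0.05.

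Of the 9 genes of protein kinase A and its inhibitors 6 were higher and 3 lower, with Prkaca, a catalytic subunit, at 0.07 ± 0.21 (SE) and Prkar1a, a regulatory subunit, at 0.08 ± 0.12. Of 12 kinase anchors 3 were higher and 9 lower, with a median of -0.11 that was 0.09 with normexp, and Akap6 was at 0.70 ± 0.28. Of 13 other cyclic AMP effectors 7 were higher and 6 lower, with Rapgef4, which encodes Epac2, at 0.07 ± 0.19, Popdc2, a membrane protein that binds cyclic AMP, at -0.64 ± 0.27 and the cone channel subunit Cngb3 at 0.92 ± 0.19. Cngb3 was above background on 1 array of the control and 4 of the high-fat diet, and Popdc2 on 4 of the control and 2 of the high-fat diet. The sizes of these 2 differences thus have no firm basis. Of 13 genes of the CREB family and its coactivators 3 were higher and 10 lower. On the cyclic GMP side, 7 of 10 guanylyl cyclases and kinases were higher, Gucy2c, the guanylin receptor, at 1.11 ± 0.40. On the calcium side, 6 of 11 calmodulin and calcium dependent regulators and 3 of 6 genes of nucleotide export and partners were higher. None of these genes passed the adjusted threshold.

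Marker lists of other cell types went in both directions. Means on the high-fat diet were higher for 8 of 10 acinar and 4 of 5 ductal markers. They were also higher for 6 of 7 endothelial and 6 of 7 stellate and pericyte markers, and for 1 of 5 Schwann and nerve markers. With normexp 9 of 10 acinar markers were lower, and 2 were after leaving out smeared spots. Of the alpha cell markers 5 of 6 and 5 of 5 delta and PP cell markers had lower means on the high-fat diet, 4 of each at an unadjusted p under 0.05, with medians of -0.88 and -0.45 that were -0.54 and -0.44 with normexp. The summed level of the alpha list, relative to the 75th percentile, was 270.8 to 372.4 on control and 276.1 to 334.5 on high-fat arrays, and that of the delta and PP list 282.9 to 354.4 and 225.8 to 284.6. Macrophage markers were lower for 5 of 6 genes, with sums of 10.1 to 17.8 and 8.10 to 11.9. Lymphocyte markers were lower for 5 of 7, with sums of 7.09 to 10.6 and 5.48 to 12.0. With normexp 3 of the 7 lymphocyte markers were lower, and 5 after leaving out smeared spots. Beta cell markers were evenly split, 5 higher and 5 lower, with sums of 806.6 to 1152 and 878.8 to 1165. With normexp all 10 beta cell markers were lower, and 5 were after leaving out smeared spots. The 10 acinar markers had sums of 1831 to 3733 on control and 2230 to 3873 on high-fat arrays. The part of these cell types in the lower values of Pde1c, Adcy5, Adcy7 and Pde3b b was not tested.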

How the data were processed

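One-colour Agilent arrays measured total RNA of 4 control and 4 high-fat samples. The authors deposited scanner files made with Feature Extraction 11.5.1.1, per the file headers, with 1 spot intensity per line, and a table of log2 values whose median per array is 8.68 to 8.69; limma is named in the submitters' processing notes, and the background step and normalization behind that table are not given in the sources used here. Differences of dim probes are much smaller in that table than in the scanner values, and its centring per array is unstated.

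Here the processed signal was put on the log2 scale, minus the array's 75th percentile. Control spots and 125 to 228 outlier spots per array were left out, and spots of a probe were averaged. No spot was saturated. A probe was tested if 4 or more arrays had it well above background, which left 26084 probes. Diets were compared in limma 3.58.1 (lmFit, eBayes, no covariates; R 4.3.3), with Benjamini-Hochberg adjustment over all these probes and a threshold of 0.05. With 4 arrays a diet, the number of arrays limits the precision. The p-values weigh each difference against the spread between these samples, which eBayes moderates over all probes. On simulated data for this comparison with 25923 probes, 54% of shifts of 1 and 91% of shifts of 2 on the log2 scale were recovered, with 14 false calls. The simulated noise was independent between arrays, with each probe's own SD and no slide effect. The shifts were placed among all tested probes, so the recovery for the cyclases and phosphodiesterases, most with an SE above the median, was not measured. Many probes were shifted at once, by 1 or 2, which eases the adjusted threshold for each of them. The recovery of a single shifted probe was not measured either.

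Named were probes at an unadjusted p under 0.05, 13 genes with a role in islets or many probes, genes with several tested probes, and pathway genes at an unadjusted p under 0.05 (at most 4 per list) with Glp1r, Gipr, Gnas, Prkaca, Prkar1a and Rapgef4. Members, lists and rules were chosen with earlier results of these data known. The lists were 9 of pathways and 11 of cell types. The result of 1 marker list is not reported here. Pde12, Pde1c c and the probes of the slide comparison were named after their values were seen. Of the 11 marker lists, acinar genes were higher for 8 of 10 (lower for 9 of 10 with normexp, and for 2 of 10 after leaving out smeared spots), ductal for 4 of 5, endothelial for 6 of 7, stellate and pericyte for 6 of 7, and Schwann and nerve for 1 of 5, with 0 at an unadjusted p under 0.05. All 35 gene symbols were found in the RefSeq gene table. Alternatives were 2 normexp corrections (offset 50, without or with removal of spots whose local background exceeds 4 times the array's median, of which high-fat replicate 2 had 7), quantile and median scaling, the deposited table, 2 filters, genes in place of probes, a trended robust eBayes, array weights, slide and replicate blocks, each slide alone and leaving out each array. Tables and plots used Python 3.11.15, pandas 2.3.3, numpy 2.4.6 and matplotlib 3.10.9.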

Additional observations from a re-analysis of the deposited data

Results flagged for a closer look

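In 5 of the 91 groups of 4 arrays that could be tested, 1 array stood apart from the other 3, where the gap to its nearest neighbour as a share of the whole range exceeded Dixon's critical value at 95%; chance gives about 1 in 20 groups. For Adcy6, control replicate 1 was the highest control array, at 0.97 with the next at 0.45 (share 0.847). For Pde4b c, control replicate 2 was the lowest, at -4.52 with the next at -3.69 (share 0.851). For Pde6h a it was again control replicate 2, at -5.20 with the next at -4.26 (share 0.852). For Pde8b a, control replicate 3 was the highest, at -2.37 with the next at -3.41 (share 0.851). For Pde6b, high-fat replicate 1 was the lowest high-fat array, at -7.11 with the next at -4.85 (share 0.904).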

How the results depend on the processing

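The samples number 4 a diet, many members lie near background, and no member passed the adjusted threshold, so signs and unadjusted calls are all that can vary. No member passed it under any alternative either, while 1 of all probes did in the deposited table and 1 with trended robust eBayes. The signs of Adcy6, Pde4c, Pde4d d, Pde6c b, Pde6h a and Pde10a a held under every alternative that gave a value by probe, and 17 probes, these 6 included, held theirs with normexp set aside. Normexp moved the median difference of all probes from -0.01 to 0.19, and with it the median level of the tested probes was -0.09 on high-fat replicate 2, against -0.89 to -0.79 on the other arrays; a smear of 7 spots lies on that array.

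The number of members lower at an unadjusted p under 0.05, 5 in the reported fit, was 0 with both normexp corrections and in the deposited table, 1 on slide 2 alone, 2 with quantile normalization, median scaling or genes by their brightest probe, 3 with the filter on 8 of 8 arrays or trended eBayes, and 8 with array weights; leaving out 1 array gave 2 to 9. The number higher, 1, was 0 with both normexp corrections, in the deposited table, with the 8 of 8 filter, with genes by their brightest probe and on slide 2 alone, 2 with array weights, and 3 with quantile normalization or on slide 1 alone; leaving out 1 array gave 1 to 2. Members whose diets did not overlap, 3, were 0 with both normexp corrections and 1 in the deposited table.

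The cyclase median, -0.38, was 0.37 with normexp, -0.071 without smeared spots and -0.050 in the deposited table, and the phosphodiesterase median, -0.06, was 0.55 with normexp. With normexp the pathway medians were -0.36 for protein kinase A, 0.092 for kinase anchors (0.055 on slide 1 alone), 0.42 for other cyclic AMP effectors, -0.24 for the CREB family, 0.42 for guanylyl cyclases and kinases, -0.24 for calmodulin and calcium dependent regulators and -0.19 for nucleotide export. The cause of these moves was not tested.

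The labels do not pair the samples, and the replicate numbers were not taken to pair them, since same-numbered arrays correlated in their deviations at 0.24, 0.39 and 0.30 for replicates 1, 2 and 4 but at -0.02 for replicate 3. With the replicate block 6 members were lower and 1 higher at an unadjusted p under 0.05, with Pde1c c (0.0298) and Pde4b c (0.0354) gained and Pde3b b (0.0775) lost in limma, and the cyclase and phosphodiesterase medians were -0.38 and -0.06; the interaction was not run with the block.

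Signs turned for 29 probes with normexp, to Adcy2 0.63, Adcy3 0.52, Adcy4 0.073, Adcy5 a 0.56, Adcy5 b 0.50, Adcy7 0.24, Adcy9 -0.41, Pde1a a -0.021, Pde1b 0.25, Pde1c a 0.33, Pde1c b 0.54, Pde1c c 0.57, Pde3b b 0.58, Pde4a b 0.47, Pde4b b 0.14, Pde4b c 0.68, Pde4d b 0.60, Pde4d c 0.63, Pde5a b 0.64, Pde6b 0.79, Pde6c a 0.72, Pde6g 0.55, Pde7a a 0.39, Pde7b a 0.64, Pde8a b 0.61, Pde8b a 0.60, Pde10a b 0.093, Pde11a a 0.39 and Pde12 0.30. Without smeared spots 14 turned, to Adcy2 0.10, Adcy9 -0.010, Pde1b 0.015, Pde4a b 0.028, Pde4b c 0.027, Pde4d b 0.048, Pde4d c 0.0074, Pde5a b 0.0038, Pde6b 0.19, Pde6c a 0.10, Pde6g 0.037, Pde7b a 0.016, Pde8a b 0.053 and Pde8b a 0.013. In the deposited values 8 probes turned, to Adcy2 0.013, Adcy9 -0.048, Pde1b 0.014, Pde5a b 0.0043, Pde6b 0.027, Pde6c a 0.0077, Pde6g 0.011 and Pde8a b 0.0045. With quantile normalization 8 turned, to Adcy4 0.0065, Adcy9 -0.062, Pde1b 0.041, Pde4d b 0.017, Pde4d c 0.027, Pde6c a 0.043, Pde6g 0.046 and Pde8a b 0.074. With median scaling 13 turned, to Adcy4 0.037, Pde1b 0.055, Pde3b a 0.024, Pde4a b 0.0052, Pde4d b 0.021, Pde4d c 0.017, Pde6c a 0.031, Pde6d 0.031, Pde6g 0.056, Pde8a a 0.0098, Pde8a b 0.035, Pde10a b 0.022 and Pde11a a 0.017. With array weights 8 turned, to Pde1b 0.062, Pde4a a -0.038, Pde6b 0.25, Pde6c a 0.077, Pde6g 0.090, Pde8b a 0.040, Pde9a -0.059 and Pde11a a 0.16. On slide 1 alone 7 turned, to Adcy9 -0.058, Pde2a 0.0019, Pde4a b 0.50, Pde4d a -0.31, Pde4d b 0.23, Pde8b a 0.27 and Pde11a a 0.20. On slide 2 alone 14 turned, to Pde1a a -0.10, Pde1b 0.020, Pde3a a -0.44, Pde4a a -0.48, Pde4b a 0.012, Pde5a a -0.011, Pde5a b 0.24, Pde6c a 0.0027, Pde6d 0.11, Pde7b a 0.0024, Pde8a b 0.26, Pde9a -0.28, Pde10a b 0.021 and Pde11a b -0.80. Leaving out 1 array turned the sign of 23 probes at least once, with ranges over the 8 fits of Adcy2 -0.46 to 0.033, Adcy4 -0.13 to 0.015, Adcy9 -0.073 to 0.074, Pde1a a -0.082 to 0.35, Pde1b -0.18 to 0.12, Pde3a a -0.18 to 0.49, Pde4a a -0.22 to 0.16, Pde4a b -0.28 to 0.14, Pde4d a -0.23 to 0.44, Pde4d b -0.25 to 0.15, Pde4d c -0.26 to 0.13, Pde5a b -0.52 to 0.32, Pde6b -0.39 to 0.49, Pde6c a -0.22 to 0.091, Pde6d -0.17 to 0.047, Pde6g -0.19 to 0.16, Pde7b a -0.27 to 0.12, Pde8a a -0.12 to 0.0053, Pde8a b -0.30 to 0.086, Pde8b a -0.22 to 0.20, Pde10a b -0.17 to 0.055, Pde11a a -0.34 to 0.20 and Pde11a b -0.073 to 0.98. For all of these the cause was not tested.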
